A study of Mus musculus with 45 samples.

Results

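The genes described here encode the enzymes that build cholesterol and long-chain fatty acids and the regulators of those enzymes. They were chosen by name: 29 members among the 52636 genes listed for every library, namely 7 enzymes of the mevalonate segment, 11 enzymes from squalene to cholesterol, 4 regulation or transport genes and 7 fatty acid enzymes. The libraries came from mouse intestine and were made to ask what the stem cell receptor Lgr5 and its Rspondin ligands do. Lgr5+ cells were sorted by eGFP from the small intestine of Lgr5-DTReGFP embryos at E16.5, where heterozygous (HE) and knockout (KO) embryos gave 2 pools each, and from 2 single HE embryos at E18.5. The pools held 7 and 8 HE embryos and 2 and 6 KO embryos of the same 2 litters, and eGFP was driven from the Lgr5 locus itself. Adult HE cells came from the duodenum and the ileum of the same 2 mice, aged 2 months. A further set came from the ileum of adult mice of the same age 48 h after 2 mg tamoxifen, in which eGFP+ and Tomato+ cells were sorted from Lgr5-Cre/+ mice (HE, 2 libraries) and from Lgr5-Cre/flox mice (cKO, 3 libraries). Organoids came from E17.5 Lgr5-DTReGFP small intestine and were analysed at passage 4. The WT cultures WT10, WT5 and WT30 and the KO cultures KO7 and KO2 each came from 1 embryo, and each was grown with Rspo1, Rspo2 or Rspo3 at 100 or 5 ng/ml, which gave 30 libraries.

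Cholesterol is made from acetyl-CoA through mevalonate, farnesyl diphosphate, squalene and lanosterol, and fatty acids are made from the same cytosolic acetyl-CoA through malonyl-CoA. The transcription factors SREBP-2 and SREBP-1, encoded by Srebf2 and Srebf1, switch on most of these genes when sterols in the endoplasmic reticulum membrane run low, and INSIG-1, itself a target, holds them back when sterols are plentiful. Intestinal epithelium both absorbs cholesterol and makes it, and crypt cells are among the sites of synthesis. SREBPs bind sterol regulatory elements and E-boxes in promoters, often beside a CCAAT box bound by NF-Y.

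Promoter sequences from RefSeq (build GRCm38.p6) were matched for 23 of the 29 members, from 250 bases before to 50 bases after each start, with 28 promoters in all since some members had several. The 5 printed here were picked from members described below. Capitals mark every match, on either strand, to TCACNCCA (N is any base), to CACGTG or to CCAAT, which reads ATTGG on the other strand. Hmgcs1 and Msmo1 hold TCACNCCA, Insig1 and Sc5d hold CACGTG, and Acly holds CCAAT alone. Cyp51, Tm7sf2 and Pmvk, also described below but not printed, matched CCAAT alone. Each printed promoter runs 5′ to 3′ on the strand of its gene.
Hmgcs1 (chr13:119690101-119690400, plus strand): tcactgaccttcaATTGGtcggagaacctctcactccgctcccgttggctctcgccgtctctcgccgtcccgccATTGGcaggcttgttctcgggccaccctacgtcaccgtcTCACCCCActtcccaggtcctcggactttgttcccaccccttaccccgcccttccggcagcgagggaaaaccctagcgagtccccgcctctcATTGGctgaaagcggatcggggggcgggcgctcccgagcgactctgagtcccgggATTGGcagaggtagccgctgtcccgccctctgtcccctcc
Msmo1 (chr8:64733529-64733828, minus strand): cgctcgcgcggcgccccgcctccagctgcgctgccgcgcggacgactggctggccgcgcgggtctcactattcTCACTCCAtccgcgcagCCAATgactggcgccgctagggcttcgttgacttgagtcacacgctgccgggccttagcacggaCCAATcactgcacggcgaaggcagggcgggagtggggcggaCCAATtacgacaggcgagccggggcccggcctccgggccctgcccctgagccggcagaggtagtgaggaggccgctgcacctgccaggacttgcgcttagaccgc
Insig1 (chr5:28071162-28071461, plus strand): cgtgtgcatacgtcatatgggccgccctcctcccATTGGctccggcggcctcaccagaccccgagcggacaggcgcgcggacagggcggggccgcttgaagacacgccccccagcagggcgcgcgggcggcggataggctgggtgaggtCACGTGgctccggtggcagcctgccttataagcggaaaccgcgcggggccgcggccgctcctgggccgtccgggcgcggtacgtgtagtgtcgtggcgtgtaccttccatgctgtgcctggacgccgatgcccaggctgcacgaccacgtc
Sc5d (chr9:42264251-42264550, minus strand): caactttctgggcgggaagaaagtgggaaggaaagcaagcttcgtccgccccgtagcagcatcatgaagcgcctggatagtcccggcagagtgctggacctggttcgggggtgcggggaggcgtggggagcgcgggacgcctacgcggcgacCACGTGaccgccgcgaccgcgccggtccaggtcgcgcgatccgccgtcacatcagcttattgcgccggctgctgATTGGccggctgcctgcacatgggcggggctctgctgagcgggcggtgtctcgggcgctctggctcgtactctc
Acly (chr11:100527951-100528250, minus strand): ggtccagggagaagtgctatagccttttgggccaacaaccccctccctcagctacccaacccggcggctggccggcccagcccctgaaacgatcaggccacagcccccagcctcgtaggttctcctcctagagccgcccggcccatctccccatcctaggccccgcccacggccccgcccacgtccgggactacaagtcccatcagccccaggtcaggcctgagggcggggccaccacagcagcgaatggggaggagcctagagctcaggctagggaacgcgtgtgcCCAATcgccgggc
TCACNCCA was found in Hmgcs1 (at -137 from the start), Msmo1 (at -177) and Srebf2 (at -162), in 10.7% of the 28 member promoters against 4.36% of all 32851 promoters. Its longer form TCACNCCAC, which overlaps it, was in Hmgcs1 alone, or 3.57% against 1.24%. CACGTG was found in Insig1 (at -101), Sc5d (at -98), Dhcr7 and Hsd17b7, or 14.3% of member promoters against 7.15% of all. CCAAT was found in 21 promoters of 20 members, or 75.0% against 37.4% of all promoters, and Acly had only 1 match, at 37 after the start. No matches overlapped in the printed promoters. These are matches of letters, and binding was not measured.

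Values are CPM, the read count of a gene scaled to its library, and differences are log2 fold changes of CPM + 1 from limma with their SE. Sorted cells and organoids were normalised separately, so no level is compared between them. A gene was called in sorted cells at an adjusted p below 0.1 with a fold above 1.5, and in organoids at an adjusted p below 0.05. Estimated depth was 1275949 to 9984640 reads in the sorted libraries and 18127806 to 33105731 in the organoids. Transcripts of Lgr5, the targeted gene, measured 104 and 125 CPM in E16.5 HE and 64.8 and 51.7 CPM in E16.5 KO. In the conditional set it was at 52.8 and 87.6 CPM in the HE libraries and 89.2, 109 and 90.7 in the libraries labelled cKO, so it was not lower there. Of the 5 libraries of that set, 2 are listed under the opposite genotype in a published copy of the values, and the main results from that set are given below for both assignments. In organoids Lgr5 ranged from 0.35 to 457.5 CPM in WT and from 0.20 to 104 CPM in the cultures labelled KO, and KO2 was above all WT cultures at 5 ng/ml of Rspo1 (7.40 CPM) and of Rspo2 (90.5 CPM). The study describes the cKO as loss of an exon with a frameshift, and reports a truncated Lgr5 transcript in KO embryos. A count over the whole gene therefore does not measure loss of Lgr5 function. Culture KO2 stood apart from KO7, with all 29 members above KO7 in 4 of the 6 conditions. Nothing says that the organoid cultures of 1 genotype came from separate litters, so p-values measure the spread between these cultures.

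Per kilobase of exon, the desaturase gene Scd2 was the member with the highest level in both tables, at a mean of 172 CPM per kb in sorted cells and 296 in organoids. In organoids it was followed by Insig1 at 139 CPM per kb, then Hmgcs1 and Fasn, the latter at 84.3, and Acaca was lowest at 7.88. In sorted cells the lowest was Scd1, the paralog of Scd2, at 1.13 CPM per kb. Among organoid libraries Scd1 had the widest range of the members, from 61.0 to 569 CPM, and Srebf2 the narrowest, from 347 to 467 CPM. Scd1 and Scd2 are close paralogs, and how reads shared between them were counted is not given in the sources used here.

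In WT organoids, the higher dose of Rspo1 or Rspo3 went with lower levels of most cholesterol synthesis genes. With Rspo1, 18 of the 29 members were lower at 100 than at 5 ng/ml and 2 were higher, against 12.5% and 40.9% of all genes tested. With Rspo3, 20 were lower and 2 higher, against 13.7% and 37.8%. The median log2 difference of the members was -0.59 with Rspo1 and -0.77 with Rspo3, while that of all genes was 0.28 and 0.24. With Rspo2, 4 members were lower and none was higher by limma, against 9.12% and 24.3% of all genes, and the median was -0.10 against 0.17. In such bulk samples, fewer cells of a type and less RNA per cell cannot be told apart. The study reports full organoid survival with Rspo2 already at the lower dose, but with Rspo1 and Rspo3 only at the higher dose. Dose and survival therefore changed together with Rspo1 and Rspo3. The part of survival in the dose contrasts of either genotype, and in their comparison between ligands, was not tested.

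**Figure D1:**
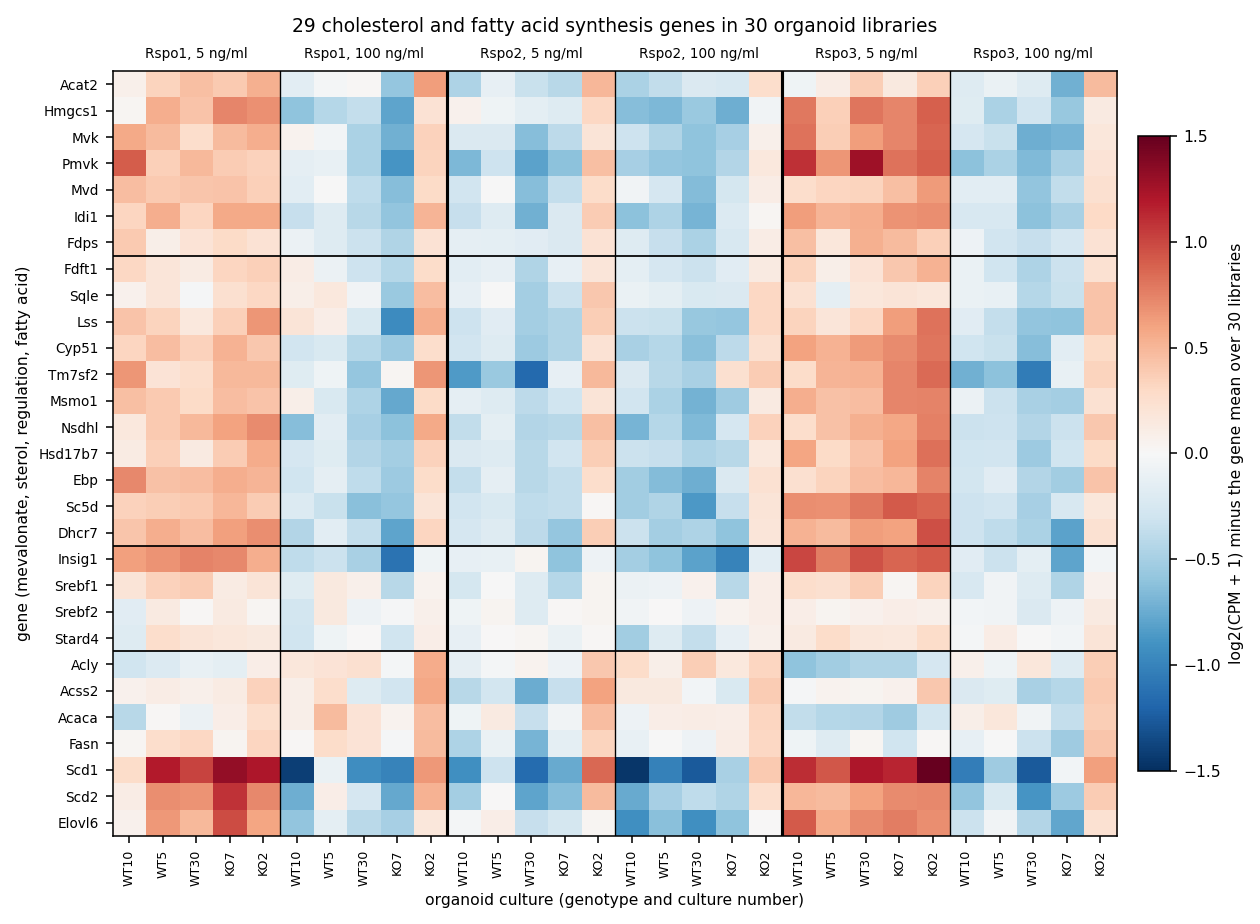
Levels of the 29 members (vertical, grouped by role) in the 30 organoid libraries (horizontal, by ligand, dose in ng/ml and culture), shown as log2(CPM + 1) minus the mean of the gene over the libraries, with the colour scale limited to 1.5 either way. Most sterol enzymes, Sqle excepted, and Insig1 are red in the Rspo1 and Rspo3 libraries at 5 ng/ml and blue in most at 100 ng/ml, KO2 excepted, while Acly and Acaca run the other way.

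The mevalonate segment was lower in 6 of its 7 genes with Rspo1 and again in 6 with Rspo3. Hmgcs1, which makes the substrate of mevalonate synthesis, lies on the plus strand of chromosome 13 (chr13:119690379-119708260, GRCm38). Under Rspo1 it was at 418, 596 and 551 CPM in WT10, WT5 and WT30 at 5 ng/ml and at 269.5, 304 and 319.8 CPM at 100 ng/ml. The doses did not overlap, and the difference was -0.79 ± 0.22 SE, limma adjusted p = 0.00455. Under Rspo3 the same cultures gave 707, 522 and 717 CPM at 5 ng/ml and 361, 294 and 336 CPM at 100 ng/ml. Again every culture was lower at the higher dose (-0.96 ± 0.22 SE, limma adjusted p = 0.000899).

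Pmvk, the kinase that acts on phosphomevalonate (chr3:89454541-89469013, plus strand), had the largest fall of the segment with each of these ligands. It was at 80.6, 59.2 and 91.3 CPM with Rspo3 at 5 ng/ml and at 24.0, 26.4 and 23.2 CPM at 100 ng/ml, so that the doses were well apart. The difference was -1.59 ± 0.27 SE, limma adjusted p = 3.95e-05 with Rspo3 and -0.82 ± 0.27 SE, limma adjusted p = 0.0143 with Rspo1. Mevalonate kinase (Mvk) fell by 0.59 and 1.05 on the log2 scale with Rspo1 and Rspo3. For the decarboxylase Mvd the 2 falls were 0.61 and 0.61, for the isomerase Idi1 0.71 and 0.93, and for farnesyl diphosphate synthase (Fdps) 0.43 and 0.62. Acat2, which joins acetyl-CoA units at the entry, passed neither test, with log2 differences of -0.34 and -0.30. Of the exon length of Fdps, 26.7% is shared with another gene on the same strand, so its reads are less certain.

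Of the 11 enzymes from squalene to cholesterol, 8 were lower with Rspo1 and 9 with Rspo3. Sc5d, a desaturase of the late pathway (chr9:42251595-42264256, minus strand), was at 146, 148 and 150.1 CPM with Rspo1 at 5 ng/ml and at 98.7, 90.8 and 73.8 CPM at 100 ng/ml. With Rspo3 it went from 186, 185 and 198 CPM at 5 ng/ml to 92.3, 93.8 and 80.3 CPM at 100. The 3 cultures were within a narrow range at the lower dose, and neither ligand gave overlapping doses. The differences were -0.76 ± 0.17 SE, limma adjusted p = 0.00068 with Rspo1, and -1.09 ± 0.17 SE, limma adjusted p = 1.09e-05 with Rspo3.

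Cyp51, the lanosterol demethylase, was at 404, 382 and 414 CPM with Rspo3 at 5 ng/ml and 216, 212 and 172 CPM at 100 ng/ml, a difference of -1.0 ± 0.19 SE, limma adjusted p = 0.000109. With Rspo1 its difference was -0.69 ± 0.19 SE, limma adjusted p = 0.00383. Tm7sf2, a sterol reductase that follows Cyp51 (chr19:6062821-6068373, minus strand), was at 72.6, 85.3 and 86.0 CPM and 35.7, 38.6 and 28.5 CPM at the 2 doses of Rspo3, so that every culture at 100 ng/ml was below every culture at 5. Its difference was -1.23 ± 0.19 SE, limma adjusted p = 1.38e-05, the largest among these 11 enzymes, and -0.65 ± 0.19 SE, limma adjusted p = 0.00676 with Rspo1. Of its exon length, 12.1% is shared with another gene on the same strand.

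The steps that strip methyl groups from the sterol moved in the same direction. The methylsterol oxidase Msmo1 fell by 0.57 and 0.78 on the log2 scale with Rspo1 and Rspo3, Nsdhl by 0.78 and 0.77, and Hsd17b7 by 0.49 and 0.81. Of the late enzymes, the isomerase Ebp fell by 0.81 and 0.64 and the reductase Dhcr7 by 0.80 and 0.93. Squalene synthase (Fdft1) passed with Rspo3 only, at -0.49, against -0.30 with Rspo1. The difference between these 2 effects was not tested. Squalene epoxidase (Sqle), a rate-limiting step, did not follow the rest. It was at 165, 178 and 155 CPM with Rspo1 at 5 ng/ml and 167, 175 and 152 CPM at 100 ng/ml, and the doses overlapped (-0.01 ± 0.22 SE, limma adjusted p = 0.967, 95% interval -0.47 to 0.45). Lanosterol synthase (Lss) passed neither test, with log2 differences of -0.28 and -0.65.

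Among the regulation genes, Insig1 fell with all 3 ligands while Srebf2 passed no test. Insig1 (chr5:28071363-28078662, plus strand) was at 598, 625 and 654 CPM with Rspo1 at 5 ng/ml and 299, 312 and 279 CPM at 100 ng/ml. With Rspo3 it went from 782, 664 and 762 CPM at 5 ng/ml to 347, 313 and 352 CPM at 100. Both ligands gave doses far apart, with differences of -1.07 ± 0.22 SE, limma adjusted p = 0.000298, and -1.12 ± 0.22 SE, limma adjusted p = 0.000169. Srebf1 passed with Rspo3, from 405, 398 and 433 CPM at 5 ng/ml to 284, 323 and 293 CPM at 100 (-0.46 ± 0.16 SE, limma adjusted p = 0.0179), and not with Rspo1 (-0.29, limma adjusted p = 0.116). Srebf2 was at 373, 462 and 425 CPM at 5 ng/ml of Rspo1 and 347, 467 and 399 CPM at 100, which overlapped (-0.06 ± 0.10 SE, limma adjusted p = 0.641). The sterol carrier Stard4 passed only with Rspo2, as given below, with -0.21 and -0.17 under Rspo1 and Rspo3.

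The fatty acid enzymes divided. The enzymes that finish and desaturate fatty acids were lower at the higher dose, and those at the entry were higher or passed no test. Scd1, a stearoyl-CoA desaturase (chr19:44394455-44407879, minus strand), had the largest fall of the 29 members with each of these ligands. It was at 364, 324 and 392 CPM with Rspo3 at 5 ng/ml and 81.6, 117 and 69.8 CPM at 100 ng/ml, with no overlap (-2.03 ± 0.41 SE, limma adjusted p = 0.000299). With Rspo1 it went from 204, 386 and 341 CPM at 5 ng/ml to 63.0, 158 and 88.3 CPM at 100 (-1.63 ± 0.41 SE, limma adjusted p = 0.00228). Scd2, at chr19:44293674-44306864 on the plus strand, was at 2098, 2079 and 2269.8 CPM and 988, 1272 and 805 CPM at the 2 doses of Rspo3 (-1.10 ± 0.33 SE, limma adjusted p = 0.00795). The elongase Elovl6 fell by 0.78 and 1.0 on the log2 scale with Rspo1 and Rspo3.

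Acly, which supplies cytosolic acetyl-CoA from citrate (chr11:100476353-100528000, minus strand), was at 225, 239.5 and 256 CPM with Rspo1 at 5 ng/ml and 311, 318 and 325 CPM at 100 ng/ml. With Rspo3 it went from 181, 193 and 202 CPM at 5 ng/ml to 290.5, 265 and 311 CPM at 100. Each culture was higher at the higher dose, by 0.41 ± 0.15 SE, limma adjusted p = 0.0247 with Rspo1, and 0.58 ± 0.15 SE, limma adjusted p = 0.0021 with Rspo3. Acaca, the acetyl-CoA carboxylase gene (chr11:84129672-84401651, plus strand), rose by 0.41 and 0.48 on the log2 scale. With TMM scaling neither gene was called with either ligand, and the differences were 0.06 and 0.32 for Acly and 0.07 and 0.22 for Acaca. Fasn, the fatty acid synthase, was at 924, 1087 and 1127 CPM at 5 ng/ml of Rspo1 and 918, 1100.4 and 1044 CPM at 100, which overlapped (-0.03 ± 0.20 SE, limma adjusted p = 0.899). Acss2, which makes acetyl-CoA from acetate, passed neither test.

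Scaling bore on the balance between rises and falls. TMM scaling moved the median of all genes by 0.28, 0.20 and 0.19 on the log2 scale in the Rspo1, Rspo2 and Rspo3 dose contrasts of WT organoids, and the share of rises among all calls went from 76.6% to 48.1%, from 72.7% to 41.4% and from 73.4% to 53.8%. After TMM, 23, 7 and 25 members were lower and none was higher by limma. Relative to the median of all genes, 27, 25 and 27 of the 29 members were lower in these 3 contrasts, with medians of -0.87, -0.28 and -1.01. With the culture as a block, 21, 5 and 22 members were lower and 2, 4 and 2 higher. The shares of all genes called that stand above are from the main fit. Those of the TMM and block fits are not given here. The number called with Rspo1 was 6, 9 and 6 without WT10, WT5 and WT30 and with Rspo3 it was 15, 15 and 12, from fits with fewer libraries. The groups did not overlap downward in 21 members with Rspo1, against 13.2% of all genes.

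**Figure D2:**
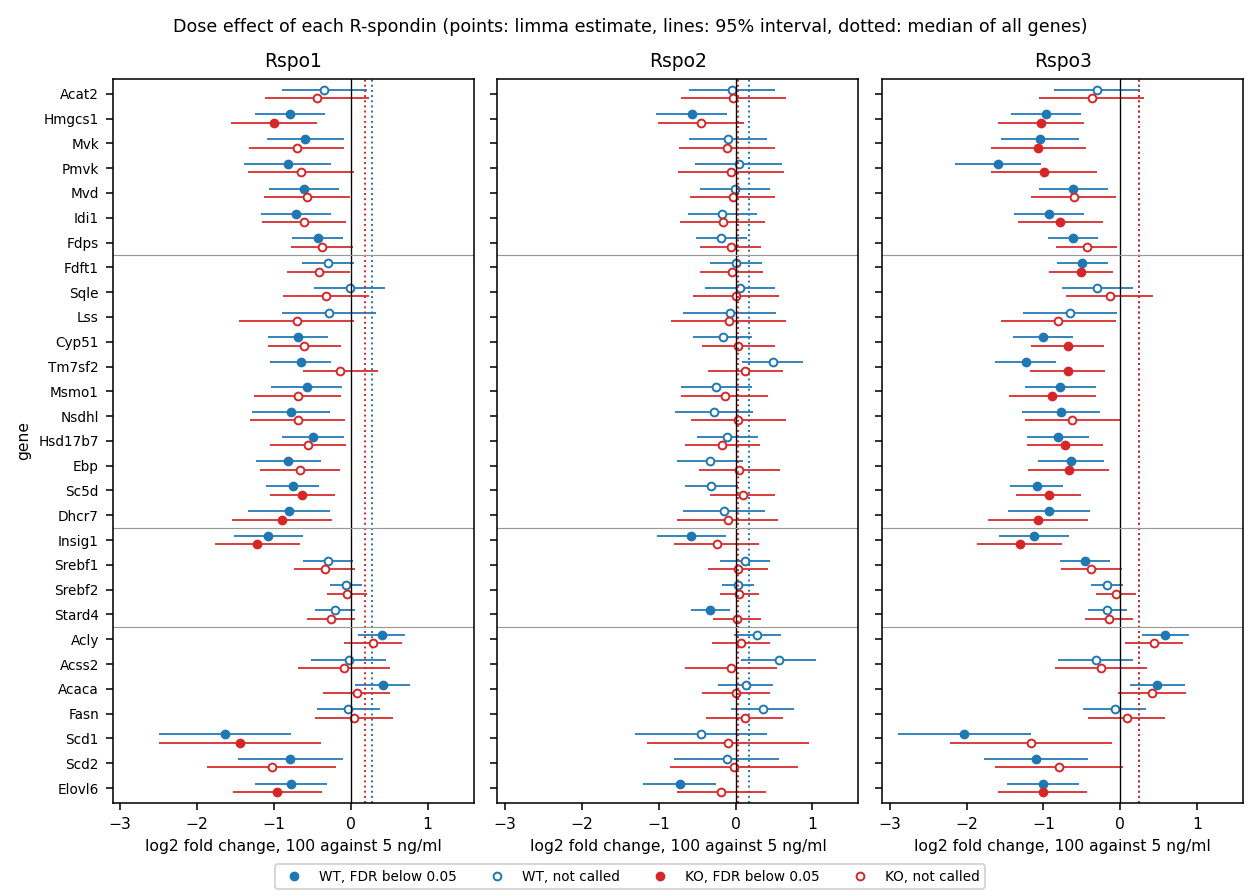
Log2 fold change of each member between 100 and 5 ng/ml (horizontal) with its 95% interval from limma, for WT organoids in blue and KO organoids in red, with 1 panel per ligand. Filled points passed an adjusted p below 0.05, and the dotted lines stand at the median of all genes. With Rspo1 and Rspo3 most members lie left of 0 in both genotypes, while with Rspo2 they lie near 0.

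With Rspo2 fewer members passed the test of dose. Hmgcs1 was at 427, 389 and 369 CPM at 5 ng/ml and 261, 255 and 279 CPM at 100 ng/ml, which did not overlap (-0.57 ± 0.22 SE, limma adjusted p = 0.0492). Insig1 went from 359, 362 and 402 CPM at 5 ng/ml to 274, 257 and 224 CPM at 100 (-0.57 ± 0.22 SE, limma adjusted p = 0.0458). The other members called were Elovl6 (-0.73 ± 0.23 SE, limma adjusted p = 0.018) and Stard4 (-0.33 ± 0.12 SE, limma adjusted p = 0.0431). Pmvk overlapped between the doses, at 23.0, 29.7 and 20.8 CPM and 26.1, 24.6 and 24.2 CPM. Leaving out any of the WT cultures took the 4 calls to 0. Srebf1 and Srebf2 passed no test, with log2 differences of 0.12 and 0.03. Lgr5 itself rose with the dose of every ligand in WT organoids, by 4.49, 4.52 and 5.01 on the log2 scale for Rspo1, Rspo2 and Rspo3.

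The dose effects of the ligands were then set against each other, a test added after those effects had been seen. In WT organoids the effect of Rspo3 was more negative than that of Rspo2 in 4 members and less negative in none by limma, against 7.33% and 15.7% of all genes. They were Tm7sf2 (difference of effects -1.71 ± 0.27 SE, limma adjusted p = 0.000116), Pmvk (-1.63 ± 0.38 SE, limma adjusted p = 0.00366), Cyp51 (-0.84 ± 0.26 SE, limma adjusted p = 0.0255) and Sc5d (-0.77 ± 0.24 SE, limma adjusted p = 0.0207). For Rspo1 against Rspo2 it was 1 member, Tm7sf2 (-1.14 ± 0.27 SE, limma adjusted p = 0.0205), against 1.01% of all genes, with 3.69% of genes the other way. The largest other differences of that contrast were -1.18 for Scd1 and -0.86 for Pmvk, neither called. With the culture as a block the counts were 15 and 6, and without single cultures they ranged from 1 to 15 and from 0 to 4. The count for Rspo1 was 0 without each WT culture, and for Rspo3 it was 1, 2 and 1 without WT10, WT5 and WT30 and 15 without either KO culture.

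Other genes of the pathway and its surroundings, from lists that are not part of the 29, were read in the same contrasts. Of 13 genes of sterol uptake, efflux and storage, 1 was higher and 6 lower with Rspo1, 2 and 5 with Rspo2, and 1 and 8 with Rspo3. Soat1, which esterifies cholesterol, rose by 2.45, 2.22 and 2.51 with the 3 ligands. With Rspo1 the absorption protein gene Npc1l1 fell by 1.47, and the sterol efflux pair Abcg8 and Abcg5 fell by 1.33 and 1.17. Of 14 genes of fatty acid oxidation, 13, 12 and 8 were lower, among them Ehhadh (-1.57) and Ppara (-1.41) with Rspo1. Of 13 further lipogenic and SREBP pathway genes, 5 were higher and 3 lower with Rspo1, 2 and 1 with Rspo2, and 7 and 3 with Rspo3. Insig2, the relative of Insig1, fell by 0.76 with Rspo1 and 1.11 with Rspo3, and Mbtps2, a protease that releases SREBPs, rose by 0.86 and 1.02.

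Markers of cell types moved with the same doses. All 5 stem cell markers were higher at 100 ng/ml with each ligand, and the summed CPM of 8 proliferation genes went from 541 to 717 at the lower dose to 1299 to 1776 at the higher with Rspo1. The same sum went from 1061 to 1307 up to 1304 to 1589 with Rspo2, and from 180 to 299 up to 1322 to 1366 with Rspo3. Of 6 enterocyte markers, 4, 5 and 4 were lower with the 3 ligands. Of 5 Paneth cell markers, 5, 5 and 4 were higher. Of 5 goblet cell markers, 0, 3 and 0 were lower and 0, 0 and 1 higher by limma, and their sum went from 3973 to 8751 CPM at the lower dose to 2632 to 4682 at the higher with Rspo1. With Rspo2 it went from 4577 to 7534 to 2432 to 3378, and with Rspo3 from 4319.7 to 8382 to 3889.7 to 6908. Mesenchyme markers summed to at most 12.75 CPM in any organoid library, immune markers to 5.10 and endothelial markers to 2.45 CPM. The part of this change in cell makeup in the members' values was not tested.

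In KO organoids, with 2 cultures, the calls for Rspo1 and Rspo3 were again falls. With Rspo1, 6 members were lower at 100 ng/ml and none was higher by limma, against 7.86% and 21.9% of all genes. With Rspo3, 14 were lower and none was higher, against 11.8% and 32.7%. With Rspo2, limma called 0 members, against 0.115% of all genes, and 0 had an unadjusted p below 0.05. The member medians were -0.60, -0.04 and -0.68 for Rspo1, Rspo2 and Rspo3, and those of all genes 0.19, 0.04 and 0.24. TMM scaling moved the median of all genes by 0.20, 0.08 and 0.22, gave 20, 0 and 21 members lower, and the share of rises among all calls went from 73.6% to 46.7% with Rspo1 and from 73.6% to 52.5% with Rspo3.

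Insig1 was at 715 and 740.0 CPM in KO7 and KO2 with Rspo3 at 5 ng/ml and at 225 and 380.3 CPM at 100 ng/ml (-1.31 ± 0.27 SE, limma adjusted p = 0.000373). Hmgcs1 went from 680.0 and 759 CPM at 5 ng/ml to 275 and 448 CPM at 100 (-1.03 ± 0.27 SE, limma adjusted p = 0.00359), and Sc5d from 216 and 209.9 CPM to 96.7 and 129 CPM (-0.93 ± 0.20 SE, limma adjusted p = 0.000808). In these genes both cultures were lower at the higher dose, and KO7 was the lower of the cultures at 100 ng/ml. The other members called with Rspo3 were Mvk, Pmvk, Idi1, Fdft1, Cyp51, Tm7sf2, Msmo1, Hsd17b7, Ebp, Dhcr7 and Elovl6, at -1.07 to -0.51 on the log2 scale. With Rspo1, Insig1 was at 643 and 574 CPM at 5 ng/ml and 181 and 374 CPM at 100 ng/ml (-1.22 ± 0.27 SE, limma adjusted p = 0.00179). The other members called were Hmgcs1 (-1.0), Sc5d (-0.63), Dhcr7 (-0.90), Scd1 (-1.44) and Elovl6 (-0.95). Srebf1 and Srebf2 passed no test with any ligand. With Rspo2 the largest differences were Hmgcs1 at -0.45 (95% interval -1.01 to 0.11), Insig1 at -0.25 (-0.80 to 0.31) and Elovl6 at -0.18 (-0.76 to 0.39). Lgr5 rose by 4.14 and 5.00 with the dose of Rspo1 and Rspo3, and with Rspo2 it was at 20.6 and 90.5 CPM in KO7 and KO2 at 5 ng/ml and passed no test (1.01).

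Markers moved with dose in KO organoids too. With Rspo1 and Rspo3 all 5 stem cell and all 5 Paneth cell markers were higher, 5 and 8 of 8 proliferation genes were higher, 3 and 4 of 6 enterocyte markers were lower and 1 goblet cell marker was lower with each. The summed proliferation genes went from 772 to 1159 CPM at 5 ng/ml to 1770.4 to 1795 at 100 with Rspo1, and from 229 to 298 to 1097 to 1575 with Rspo3. With Rspo2 limma called 0 of the markers in these lists. Their part in the members' values was not tested.

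The counts of members in KO organoids rested on which KO culture was kept. Without KO7 the Rspo1 dose contrast called 0 members and the Rspo3 contrast 7, and without KO2 they called 22 and 20. With the culture as a block they called 22 and 23, of which 21 and 21 were lower. Without WT10, which enters through the shared spread, the Rspo1 count was 3. Within single cultures, the median of the members at 100 against 5 ng/ml of Rspo1 was -1.07 in KO7 and -0.11 in KO2, against -0.51, -0.47 and -0.74 in WT10, WT5 and WT30. With Rspo3 it was -0.90 in KO7, -0.39 in KO2 and between -0.95 and -0.58 in the WT cultures. With Rspo2 it lay between -0.23 and 0.04 in all 5 cultures.

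**Figure D3:**
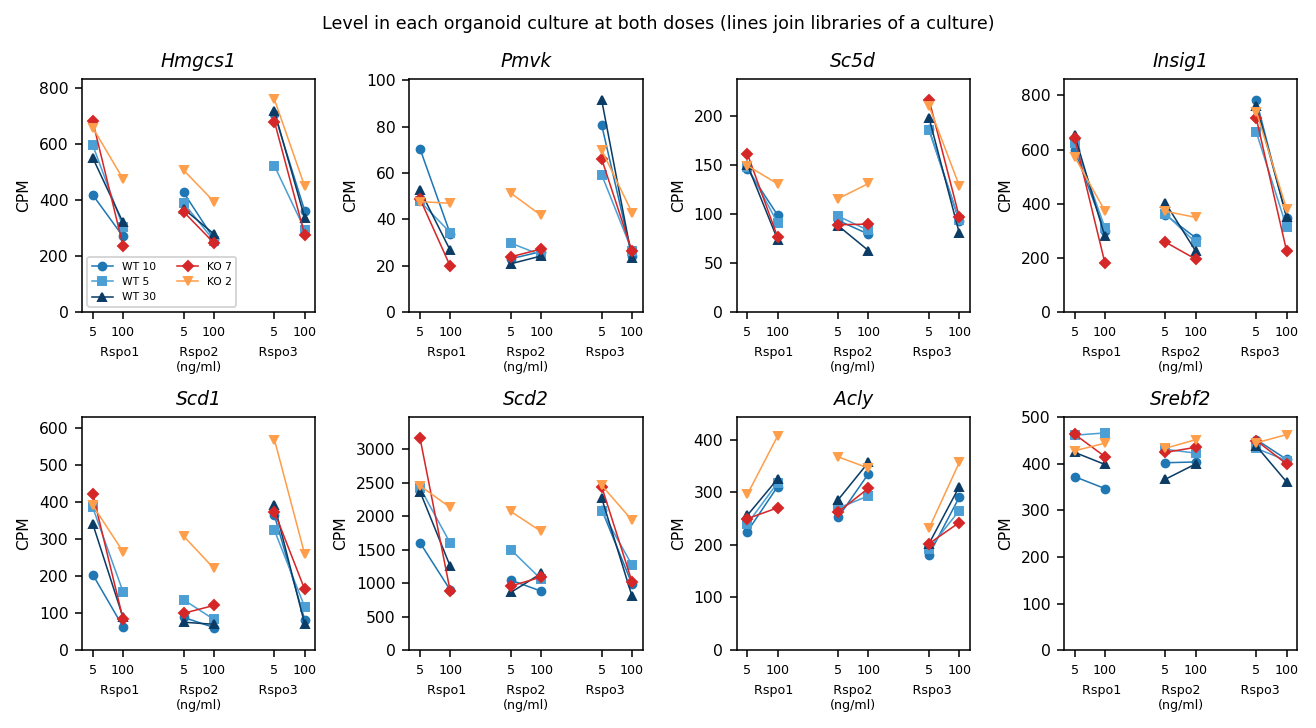
CPM (vertical) of 8 members in each organoid culture at 5 and 100 ng/ml, with 1 line per culture joining its 2 libraries for a ligand and the KO cultures in red. Hmgcs1, Pmvk, Sc5d, Insig1, Scd1 and Scd2 drop with dose of Rspo1 and Rspo3 in most cultures, with KO2 above KO7 at 100 ng/ml, while Acly climbs and Srebf2 stays within 347 to 467 CPM.

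The dose effect itself was compared between genotypes by an interaction term, and limma called 0 members for each ligand, with 0 members at an unadjusted p below 0.05. Of all genes, 0, 84 and 0 were called for Rspo1, Rspo2 and Rspo3 (0.439% with Rspo2). The intervals were wide. The KO minus WT difference for Insig1 was -0.14 (95% interval -0.86 to 0.57) with Rspo1 and -0.19 (-0.90 to 0.52) with Rspo3. For Hmgcs1 it was -0.20 (-0.92 to 0.52) and -0.07 (-0.79 to 0.65). The largest differences were Tm7sf2 at 0.52, Lss at -0.42 and Acaca at -0.34 with Rspo1, Acss2 at -0.62, Elovl6 at 0.54 and Sc5d at 0.41 with Rspo2 and Scd1 at 0.87, Pmvk at 0.60 and Tm7sf2 at 0.55 with Rspo3. The dose effect on Lgr5 itself differed with Rspo2, at -3.51 ± 0.78 SE, limma adjusted p = 0.0434.

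Between ligands within KO organoids, the Rspo3 dose effect was more negative than that of Rspo2 in 2 members and less negative in none by limma, against 4.81% and 17.6% of all genes, namely Sc5d (-1.02 ± 0.29 SE, limma adjusted p = 0.013) and Insig1 (-1.06 ± 0.38 SE, limma adjusted p = 0.0451). The next largest difference was -1.06 for Scd1, not called. For Rspo1 against Rspo2 limma called 0 members, against 2.22% of all genes, and 2 had an unadjusted p below 0.05. The block gave 14 and 4 calls, and leaving out single cultures gave 1 to 6 and 0 to 5.

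At a fixed ligand and dose, few members passed the test between KO and WT organoids. Tm7sf2 was at 32.8, 40.2 and 26.2 CPM in WT10, WT5 and WT30 and 54.8 and 84.1 CPM in KO7 and KO2 with Rspo2 at 5 ng/ml. The genotypes did not overlap, the difference was 1.04 ± 0.21 SE, limma adjusted p = 0.00966, and it was the only member called there, against 3.18% of all genes higher and 1.36% lower. With Rspo3 at 100 ng/ml Tm7sf2 was at 35.7, 38.6 and 28.5 CPM in WT and 55.0 and 75.6 CPM in KO (0.90 ± 0.21 SE, limma adjusted p = 0.0432), again the only member called, against 0.711% of all genes higher and 0.157% lower. In the other conditions limma called 0 members, against 0.214%, 0.125%, 1.20% and 0.193% of all genes with Rspo1 at 100 and 5 ng/ml, Rspo2 at 100 and Rspo3 at 5, and 1, 0, 7 and 0 members had an unadjusted p below 0.05. In 3 of these 4 conditions a larger share of the 29 members than of all genes lay above WT without overlap, by description: 11 with Rspo1 at 5 ng/ml against 12.9% of all genes, 12 with Rspo2 at 100 against 11.1%, and 14 with Rspo3 at 5 against 13.2%. In the remaining conditions 1, 2 and 4 members did so, against 7.54%, 26.0% and 17.03% of all genes. Those conditions were Rspo1 at 100, Rspo2 at 5 and Rspo3 at 100 ng/ml. In each of the 6 conditions 0 members lay below WT without overlap, against 7.38% to 14.03% of all genes. That count needs both KO cultures below WT, and KO2 was above all WT cultures in 15 to 29 members. KO7 alone was below all WT cultures in 1 to 23 members, so the 0 does not describe each KO culture. Scd1 was the member with the largest other difference in several of the 6 conditions, at 0.64, 0.44, 1.20, 0.85, 1.23 and 0.36 in the order Rspo1 at 100 and 5, Rspo2 at 100 and 5, and Rspo3 at 100 and 5 ng/ml. Of the regulators, Insig1 differed by -0.19, -0.04, 0.06, -0.27, -0.20 and -0.01, Srebf1 by -0.19, -0.15, -0.13, -0.04, -0.03 and -0.11 and Srebf2 by 0.10, 0.09, 0.12, 0.10, 0.13 and 0.02 in the same order. Over the mean of each culture, limma called 0 members, against 0.152% of all genes, with 27 higher and 2 lower in KO, a median of 0.18 against 0.01, and 2 at an unadjusted p below 0.05. The largest were Scd1 at 0.79, Tm7sf2 at 0.62 (limma adjusted p = 0.221) and Nsdhl at 0.39.

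The KO cultures did not form 1 group for these genes. All 29 members were higher in KO2 than in KO7 with Rspo1 at 100, Rspo2 at 100, Rspo2 at 5 and Rspo3 at 100 ng/ml, while over all genes between 50.3% and 67.7% were higher in KO2 in the 6 conditions. With Rspo1 and Rspo3 at 5 ng/ml it was 14 and 24 members. In KO2, 26, 15, 28, 26, 29 and 19 members were above all 3 WT cultures with Rspo1 at 100 and 5, Rspo2 at 100 and 5 and Rspo3 at 100 and 5 ng/ml, and in KO7 23, 1, 6, 5, 13 and 3 were below all of them in that order. Of all genes, 21.2%, 39.6%, 25.4%, 47.0%, 36.6% and 31.9% were above all WT cultures in KO2, and 34.3%, 29.2%, 29.6%, 24.7%, 32.5% and 25.2% below them in KO7. With Rspo1 at 100 ng/ml, for example, Insig1 was at 181 CPM in KO7, 374 in KO2 and 279 to 312 in the WT cultures. The summed CPM of the 18 sterol enzymes ranged from 2635 to 3889 in KO2 over its 6 libraries, from 1510 to 3589 in KO7 and from 1619 to 3452 in the WT cultures. Differences from the mean of the WT cultures were also taken, in the order Rspo1, Rspo2 and Rspo3, each at 100 then 5 ng/ml. The members' median log2 difference in KO2 was 0.53, 0.16, 0.57, 0.57, 0.61 and 0.22. That of all genes was -0.03, 0.10, -0.02, 0.12, 0.05 and 0.05. In KO7 the members' median was -0.27, 0.11, 0.09, -0.06, -0.13 and 0.09. That of all genes was -0.08, -0.04, -0.04, 0.06, -0.01 and -0.01.

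Ligands were also compared at the same dose. These contrasts share libraries with the dose contrasts above, so the values are set side by side and are not separate evidence. Reported survival at the lower dose was full with Rspo2 and not with Rspo1 or Rspo3, as given above. The part of this in the values was not tested. At 5 ng/ml, WT organoids with Rspo2 had lower levels than with Rspo1 in 16 members and higher levels in none by limma, against 6.35% and 16.4% of all genes, with a median of -0.62 against 0.08. Of the mevalonate genes, Pmvk was at 23.0, 29.7 and 20.8 CPM with Rspo2 and 70.4, 47.7 and 52.6 CPM with Rspo1 (-1.18 ± 0.27 SE, limma adjusted p = 0.00404), and Mvk, Mvd and Idi1 were lower by 0.79, 0.74 and 0.82. Of the sterol enzymes, Tm7sf2 was at 32.8, 40.2 and 26.2 CPM with Rspo2 and 95.4, 69.2 and 71.9 CPM with Rspo1 (-1.24 ± 0.19 SE, limma adjusted p = 0.000219), and Fdft1, Cyp51, Msmo1, Ebp, Sc5d and Dhcr7 lay at -0.84 to -0.45. Insig1 was lower by 0.74, Srebf1 by 0.46, Scd1 by 1.62, Scd2 by 0.92 and Fasn by 0.62, and Srebf2 was at -0.07, not called. The groups did not overlap downward in 22 members, against 11.6% of all genes. The count was 1, 4 and 1 without WT10, WT5 and WT30, 20 with TMM scaling and 23 with the culture as a block, and TMM moved the share of rises among all calls from 72.1% to 52.5%.

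At 100 ng/ml the same ligands gave 0 members by limma, against 0.204% of all genes, with 0 at an unadjusted p below 0.05. The largest differences were Scd1 at -0.44 (95% interval -1.30 to 0.42), Elovl6 at -0.44 (-0.91 to 0.03) and Lss at -0.43 (-1.04 to 0.18). In KO organoids at 5 ng/ml, 3 members were lower with Rspo2 than with Rspo1 and none was higher by limma, against 4.36% and 13.6% of all genes. They were Insig1 (-0.97 ± 0.27 SE, limma adjusted p = 0.0153), Elovl6 (-0.91 ± 0.28 SE, limma adjusted p = 0.0276) and Sc5d (-0.61 ± 0.20 SE, limma adjusted p = 0.0416). That count was 0 without KO7, 16 without KO2, 8 with TMM scaling and 15 with the block, and TMM moved the share of rises from 75.7% to 50.4%. Rspo3 against Rspo1 called 0 members in WT organoids by limma at either dose, against 16.4% of all genes at 5 ng/ml and 0.00523% at 100, with 2 members and 1 member at an unadjusted p below 0.05. The largest differences were Pmvk at 0.43, Sc5d at 0.36 and Elovl6 at 0.33 at 5 ng/ml and Tm7sf2 at -0.52, Lss at -0.40 and Acss2 at -0.35 at 100, and the block called 2 members at each dose.

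In sorted Lgr5+ cells at E16.5, no member passed the test between KO and HE pools. Limma called 0 of 29 members, against 0.527% of all genes, with 6 at an unadjusted p below 0.05, and edgeR and DESeq2 on the recovered reads called 0. By estimate 26 members were higher in KO, with a median of 0.16 against 0.08 for all genes, and 13 did not overlap upward, against 27.4% of all genes. Pmvk measured 50.2 and 48.0 CPM in HE and 78.6 and 68.7 CPM in KO (0.57 ± 0.17 SE, limma adjusted p = 0.208). Scd1 measured 14.2 and 9.10 CPM in HE and 5.00 and 8.75 CPM in KO (-0.69 ± 0.40 SE, limma adjusted p = 0.467). The pools did not overlap in either gene, and neither difference passed. The next largest estimates were Srebf2 at 0.55 and Idi1 at 0.55, and Insig1 and Srebf1 were at 0.15 and 0.28. The sum of mesenchyme markers ran from 733 to 1700 CPM in HE and from 167 to 455 in KO, and that of enterocyte markers from 1075 to 1315 and from 461 to 506. Their part in these values was not tested.

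Between E16.5 and E18.5, levels of many sterol enzymes fell in HE cells and those of Srebf1, Srebf2 and enzymes of fatty acid synthesis rose. The test called 10 members lower and 6 higher, against 19.4% and 30.3% of all genes, with a median of -0.07 against 0.23. All 10 that fell were among the 18 enzymes from acetyl-CoA to cholesterol. Pmvk was at 50.2 and 48.0 CPM at E16.5 and 13.2 and 14.1 CPM at E18.5 (-1.78 ± 0.17 SE, limma adjusted p = 0.000744). Cyp51 was at 184 and 187 CPM at E16.5 and 76.8 and 76.0 CPM at E18.5 (-1.27 ± 0.10 SE, limma adjusted p = 0.00047). The stages were well apart in both. Fdps and Fdft1 fell by 1.52 and 1.54 on the log2 scale, Hsd17b7 by 1.19, Msmo1 by 1.12, Mvk by 0.99, Lss by 0.78, Hmgcs1 by 0.73 and Sqle by 0.60.

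Acat2 was the enzyme of cholesterol synthesis called higher. Tm7sf2 (0.55 ± 0.19 SE, limma adjusted p = 0.0495) and Dhcr7 (-0.47 ± 0.14 SE, limma adjusted p = 0.0341) passed the adjusted p but not the fold, and the other 5 passed neither. Acat2 was at 48.6 and 40.4 CPM at E16.5 and 109 and 109 CPM at E18.5 (1.28 ± 0.14 SE, limma adjusted p = 0.00106). Srebf1 was at 41.6 and 33.8 CPM at E16.5 and 165 and 172 CPM at E18.5 (2.14 ± 0.14 SE, limma adjusted p = 0.000274), and Srebf2 went from 87.8 and 65.6 CPM to 152 and 156 CPM (1.01 ± 0.16 SE, limma adjusted p = 0.00357). Both regulators were higher at the later stage in every library. Acss2 rose by 1.36, Fasn by 0.81 and Acaca by 0.71. Insig1 (-0.13) and Scd2 (0.18) passed no test. Of 13 sterol transport genes 6 were higher and 3 lower, with Abcg8 at 2.65, Npc1l1 at 1.98 and Abcg5 at 1.75. The E16.5 samples were pools of embryos and the E18.5 samples single embryos, so pooling and stage cannot be told apart. Without either E18.5 embryo no member was called by limma, and mesenchyme markers summed to 733 to 1700 CPM at E16.5 and 65 to 75 at E18.5, while stem cell markers went from 422 to 423 up to 2496 to 2585.

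From E18.5 to the adult, 6 members were lower and 3 higher, against 9.65% and 9.36% of all genes, with a median of -0.28 against -0.04. This contrast uses the same E18.5 embryos as the one above. The duodenum and ileum libraries of a mouse count as independent in it, so its SE and p-values may be too small. The desaturase genes had the largest falls. Scd2 was at 1928 and 1845 CPM at E18.5, 83.7 and 141 CPM in adult duodenum and 339 and 569.8 CPM in adult ileum (-3.1 ± 0.68 SE, limma adjusted p = 0.0213). Scd1 was at 10.9 and 9.65 CPM at E18.5 and at most 2.10 CPM in the adult (-2.64 ± 0.42 SE, limma adjusted p = 0.00629). Every adult library was below both embryos in these genes. Srebf1 fell by 1.31, Insig1 by 1.07, Acat2 by 0.79 and Elovl6 by 0.62 on the log2 scale. Fdft1 rose by 0.64, Hmgcs1 by 0.63 and Acss2 by 0.60, while Srebf2 was at 0.11, not called.

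The ileum alone gave 13 calls and the duodenum alone 11, but 2 and 1 calls were left without the E18.5 embryos 1 and 2. Of 15 fatty acid oxidation genes 8 were lower in the adult and none was higher by limma, with Acaa2, a thiolase of fatty acid oxidation, at -2.41. Of 13 sterol transport genes 2 were higher, Abcg8 at 1.40 and Abcg5 at 1.37, and 3 lower, among them Npc1l1 at -1.31. Paneth cell markers summed to 125 to 133 CPM at E18.5 and 10356 to 26509 in the adult. The part of other cells in the members' values was not tested.

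Within the adult, ileal Lgr5+ cells had higher levels than duodenal ones of 6 members and lower levels of none by limma, against 2.24% and 4.64% of all genes. By estimate 28 of 29 were higher in the ileum, with a median of 0.37 against 0.03, and 22 did not overlap upward, against 23.6% of all genes. Scd2 was at 83.7 and 141 CPM in the duodenum of mice 1 and 2 and 339 and 569.8 CPM in their ileum (2.01 ± 0.31 SE, limma adjusted p = 0.017). Stard4 was at 117 and 133 CPM in duodenum and 215 and 212 CPM in ileum (0.78 ± 0.15 SE, limma adjusted p = 0.0358). Acly was at 109 and 112 CPM in duodenum and 176 and 183 CPM in ileum (0.70 ± 0.15 SE, limma adjusted p = 0.0452). In each of these the regions did not overlap, and Fasn, Acaca and Idi1 were higher by 0.68, 0.61 and 0.68. The regulators passed no test, with Insig1 at 0.62 and Srebf1 and Srebf2 at 0.13 and 0.13.

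With the mouse as a block 9 members were higher, and leaving out the duodenum of mouse 1 or 2 or the ileum of mouse 2 left 0 by limma, and the ileum of mouse 1 left 1. In the same cells, 6 of 6 enterocyte markers were lower in the ileum, with sums of 373 to 512 CPM in the duodenum and 98 to 100 in the ileum. Goblet cell markers summed to 1342 to 1522 CPM in the duodenum and 1988 to 7426 CPM in the ileum. Of 15 fatty acid oxidation genes 7 were lower in the ileum, with Pdk4 at -4.19 and Cpt1a at -1.44. The part of these markers in the members' values was not tested.

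After tamoxifen, limma called 0 members between cKO and HE ileum, against 0.0504% of all genes, with 2 at an unadjusted p below 0.05. Scd2 was at 359 and 227 CPM in the HE libraries and 405, 448 and 445 CPM in the libraries labelled cKO, which did not overlap (0.60 ± 0.19 SE, limma adjusted p = 0.864, 95% interval 0.14 to 1.05). Scd1 was at 2.45 and 2.30 CPM in HE and 3.10, 5.95 and 7.85 CPM in cKO (0.90 ± 0.38 SE, limma adjusted p = 0.864, 95% interval 0.02 to 1.79). Among the regulators Srebf1 was at 0.28, Srebf2 at 0.14 and Insig1 at -0.08 (95% interval -0.66 to 0.51), and Hmgcs1 was at 0.02 (-0.52 to 0.55). The next largest estimate was 0.30 for Pmvk. TMM scaling moved the median of all genes by 0.13, and the members' median went from 0.13 to -0.01. With the 2 conflicting libraries exchanged, Scd2 would be at 448 and 227 CPM in HE and 359, 405 and 445 CPM in cKO, and Scd1 at 5.95 and 2.30 CPM and 2.45, 3.10 and 7.85 CPM. The groups then overlapped in both genes, with differences of 0.33 ± 0.24 SE (limma adjusted p = 0.445, 95% interval -0.21 to 0.87) for Scd2 and 0.06 ± 0.46 SE (limma adjusted p = 0.950, -0.98 to 1.11) for Scd1. Insig1 was then at 0.16, Hmgcs1 at 0.36 and Lgr5 at -0.37. That assignment gave 0 members by limma, 2 at an unadjusted p below 0.05, while 505 of 19848 genes were higher and 274 lower. Leaving the 2 libraries out kept only HE library 2 in its group, and Scd2 was then at 0.90.

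**Figure D4:**
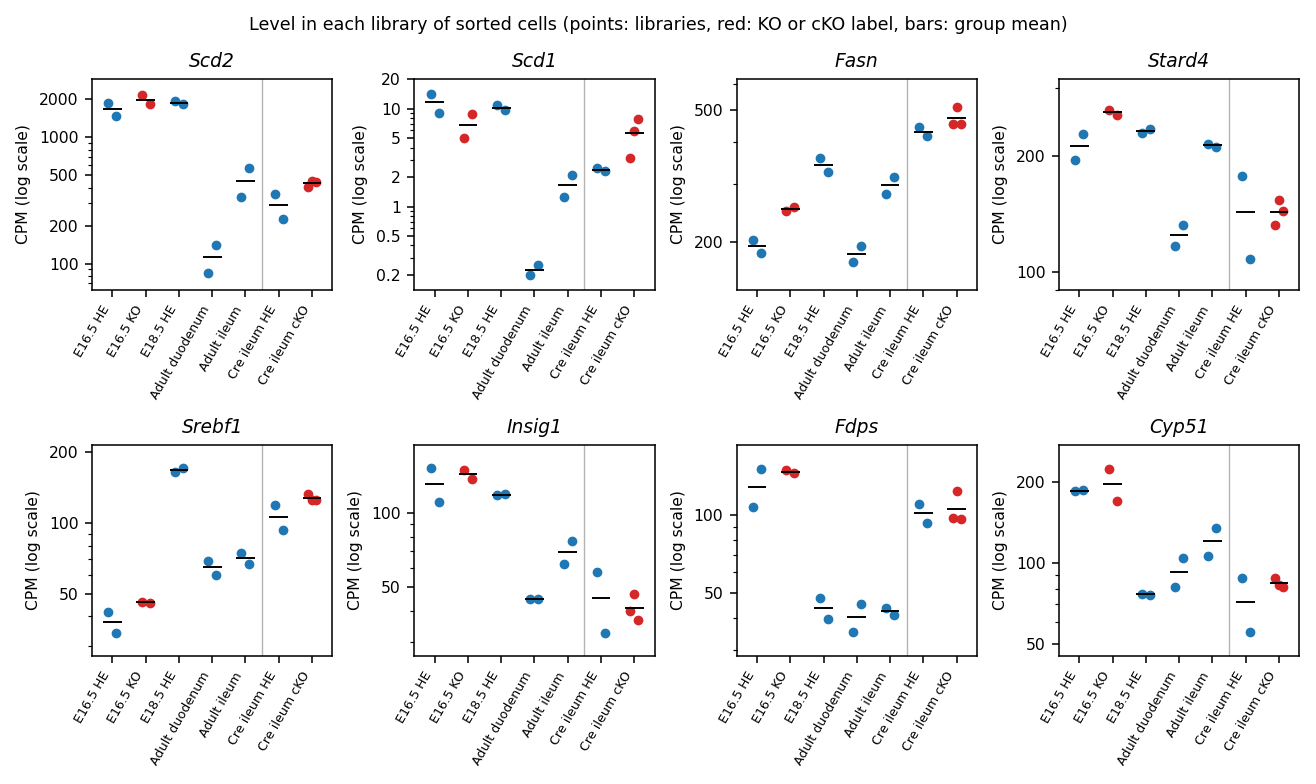
CPM on a log axis (vertical) of 8 members in each sorted Lgr5+ library, by stage, region and genotype, with 1 point per library, bars at group means and KO or cKO in red. Scd2 sits between 1488 and 2148 CPM in the embryo and between 83.7 and 570 CPM in the adult, and Fdps and Cyp51 drop from E16.5 to E18.5 while Srebf1 climbs.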

How the data were processed

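The authors trimmed reads with Trimmomatic 0.36, aligned them with STAR 2.5.3a to GRCm38, counted genes with HTSeq 0.9.1 on an Ensembl release 90 annotation and deposited CPM values from edgeR. Whether counting used strand is not given in the sources used here. Deposited CPM are rounded up to the next 0.05, and no column of the 2 tables was left unused (0 in each). Sorted cells (15 libraries, Ovation SoLo) and organoids (30 libraries, NEBNext after rRNA depletion) are separate tables. Whole reads were recovered from the CPM steps of the 4 E16.5 pools only, and these read counts, made from the deposited CPM, served the alternatives with edgeR 4.0.16 and DESeq2 1.42.0.

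Log2(CPM + 1) was fitted with limma 3.58.1 in R 4.3.3 (lmFit, eBayes with trend), with Benjamini-Hochberg adjustment over all genes at 1 CPM or more in at least 2 libraries. Sorted contrasts used only their own libraries. Organoids were fitted as 12 groups in 1 model, so the cultures shared by groups count as independent there, and a fit on culture means and one with the culture as a block (consensus correlation 0.3362) stand beside it. The members and lists were chosen with earlier results of these data known. Every member was described, those called were named, and where fewer than 3 passed the largest estimates were named too. From each other list at most 4 called genes were named, and 1 gene is not reported here. Coordinates and exon lengths came from GENCODE vM21. The test was checked on simulated data.

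Same-numbered libraries deviated together in the duodenum and ileum of a mouse (r = 0.2572), which the labels place in the same animal, and in organoid cultures (r from 0.1552 to 0.8268 over 75 pairs). The litters at E16.5 did not (r = -0.0324), though the labels give the shared litter. In the conditional set, values of 859 genes in a dataset published with the study equal those of these libraries in 100% of genes, and they place HE library 1 under cKO and cKO library 2 under HE, against the GEO labels used here. Depth was estimated from the CPM steps, and 1 read was worth up to 0.784 CPM.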

Additional observations from a re-analysis of the deposited data

Results flagged for a closer look

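Mvk, mevalonate kinase, was at 8.05 CPM in the duodenum of adult mouse 1, apart from the other 3 adult HE libraries, which lay between 9.45 and 9.65 CPM. All 29 members were tested in this way, and chance marks about 1 in 20 groups. These libraries are the duodenum and ileum of the same mice, and 1 read was worth 0.178 to 0.243 CPM in them. Whether counting noise alone gives such a gap was not tested.

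The dose effect differed between ligands in a few members by the direct test, which was added after those effects had been seen. In WT organoids the effect of Rspo1 minus that of Rspo2 was -1.14 on the log2 scale for Tm7sf2. The effect of Rspo3 minus that of Rspo2 was -1.71 for Tm7sf2, -1.63 for Pmvk, -0.84 for Cyp51 and -0.77 for Sc5d. In KO organoids the effect of Rspo3 minus that of Rspo2 was -1.02 for Sc5d and -1.06 for Insig1. These were 1, 4 and 2 of the 29 members, against 1.01%, 7.33% and 4.81% of all genes more negative. The Tm7sf2 call with Rspo1 was lost when any WT culture was left out. These contrasts share the Rspo2 libraries within each genotype.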

How the results depend on the processing

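Of 284 counts of members recomputed under the alternatives, 205 stayed within 1.5 times and 79 did not. The 205 include counts of 0 that stayed at 0, as for E16.5 KO against HE, cKO against HE and the KO Rspo2 dose. Of 178 values of single genes, 134 stayed on their side of the threshold, 44 no longer passed and 0 reversed. TMM scaling gave 7 members for the WT Rspo2 dose, 20 for the KO Rspo1 dose, 8 for KO Rspo2 against Rspo1 at 5 ng/ml, and 7 and 5 for the Rspo3 minus Rspo2 dose effect in WT and KO. Without the filter on low CPM the counts were 0 for ileum against duodenum, 1 for the WT Rspo2 dose, 3 for the KO Rspo1 dose, 0 for KO against WT with Rspo3 at 100 ng/ml, 9 and 1 for Rspo2 against Rspo1 at 5 ng/ml in WT and KO, and 1 for the KO Rspo3 minus Rspo2 effect. A threshold of 0.05 left 3 for ileum against duodenum, and a pseudocount of 0.1 left 0 for KO against WT with Rspo3 at 100. With the culture as replicate block the counts were 9 for the WT Rspo2 dose, 22 and 23 for the KO Rspo1 and Rspo3 doses, 2 and 2 for WT Rspo3 against Rspo1 at 100 and 5 ng/ml, 15 for KO Rspo2 against Rspo1 at 5, 6 and 15 for the WT Rspo1 and Rspo3 minus Rspo2 effects, and 4 and 14 for the KO ones. The block changed no other count by more than 1.5 times. For adult against E18.5 (9), E18.5 against E16.5 (16) and cKO against HE (0) it matched libraries by replicate number alone. The labels do not place those matched libraries in the same animal or litter, so these counts are no check on the calls. Leaving out 1 library or culture gave 1 to 8 for adult against E18.5, 0 to 1 for ileum against duodenum and 0 to 17 for E18.5 against E16.5. It gave 6 to 23, 0 to 9 and 12 to 25 for the WT doses of Rspo1, Rspo2 and Rspo3, and 0 to 22 and 7 to 20 for the KO doses of Rspo1 and Rspo3. For KO against WT it gave 0 to 2 with Rspo1 at 100, 0 to 5 and 0 to 14 with Rspo2 at 100 and 5, and 0 to 1 with Rspo3 at 100. For Rspo2 against Rspo1 at 5 it gave 1 to 23 in WT and 0 to 16 in KO, and 0 to 2 for WT Rspo3 against Rspo1. For the Rspo1 and Rspo3 minus Rspo2 effects it gave 0 to 4 and 1 to 15 in WT and 0 to 5 and 1 to 6 in KO. Where 1 library was left in a group it was assumed to vary like the others, and the causes of these changes were not tested. Fits with edgeR and DESeq2 were run only at E16.5, the only stage for which read counts were recovered here.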

Other observations

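Over the 6 organoid dose contrasts, Insig1, Hmgcs1 and Elovl6 were lower at 100 ng/ml in 5, and Sc5d and Dhcr7 in 4. Acat2, Sqle, Lss, Srebf2, Acss2 and Fasn were called in 0 of them in either direction by limma. Acly and Acaca were higher in 2. Squalene epoxidase (Sqle) and fatty acid synthase (Fasn) were the members whose doses overlapped in WT organoids with both Rspo1 and Rspo3. With Rspo2, Fasn overlapped as well, at 659, 844 and 559 CPM at 5 ng/ml and 836, 903 and 858 CPM at 100 ng/ml.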
